A study of Mus musculus with 3 samples.

Results

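Transcripts of 9 genes that build the synaptonemal complex or mark its axes were followed through spermatogenesis in single cells of adult mouse testis: Sycp1, Sycp2, Sycp3, Syce1, Syce2, Syce3, Tex12, Hormad1 and Hormad2. They were chosen by symbol, and each matched 1 row among the 32285 genes of the deposited tables. The series compares wildtype mice with mice that carry a conditional knockout of Tex10, a nuclear protein known from ribosome biogenesis. All mice have the strain label C57BL/6N and are described as adult, with no other allele or agent named. Wildtype replicate 1 and wildtype replicate 2 are libraries of 1 mouse each, and the knockout library pools the testis cells of 2 mice. The labels give no Cre driver and no deleted exon, so the cells in which Tex10 was removed are not known from them.

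The synaptonemal complex is the protein zipper that joins homologous chromosomes during the first meiotic prophase. SYCP2 and SYCP3 coat the axis of each chromosome as lateral elements, and the HORMA-domain proteins HORMAD1 and HORMAD2 mark axes that are not yet synapsed. SYCP1 is the transverse filament that bridges the axes, and SYCE1, SYCE2, SYCE3 and TEX12 form the central element where filaments from both sides meet, with SYCE2 and TEX12 acting as partners that assemble into fibres. Axes form in leptotene, synapsis starts in zygotene and is complete in pachytene, and the complex comes apart in diplotene.

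The assay counts unique molecular identifiers (UMIs), which stand for single captured messenger RNAs read at their 3′ end. The libraries held 93418341 to 147783171 UMIs in 9967 to 12918 barcodes, with the knockout library the deepest. After filtering, 7519, 7704 and 11084 barcodes were kept. Here and below, 3 values in a row belong to wildtype replicates 1 and 2 and to the knockout library, in that order, and 2 values to the wildtype replicates. Of the kept barcodes, 53.5%, 39.1% and 62.8% lay in clusters with few UMIs and were left out of the stages. Pairs of libraries shared 27 to 30 barcodes, of which 17 to 20 were kept in both. Named germ cells were sorted by marker genes into 7 stages, and the clusters from spermatogonia to round spermatids were also used singly as 11 steps in developmental order. The members took no part in the clustering. Tex10 itself was 142, 124 and 132 counts per 1000000 UMIs (CPM) in spermatogonia and 22.8, 23.7 and 16.8 CPM in round spermatids. It was therefore between the wildtype values in spermatogonia and below both in round spermatids, where the 95% intervals did not overlap. The same held in pachytene, at 60.7, 59.6 and 52.5 CPM, and in diplotene to dividing cells, at 51.2, 47.8 and 37.0 CPM. In preleptotene and leptotene to early pachytene cells the intervals overlapped. The shares of all tested genes that were lower in this way were 14.1% in pachytene, 8.05% in diplotene to dividing cells and 11.8% in round spermatids. Tex10 transcripts remained in the library labelled knockout, and a 3′ count does not check a deletion elsewhere in the gene. The stage values rest on 170 to 2011 cells and 1054391 to 37732121 UMIs per stage and library. Intervals given below are 95% exact intervals that cover counting error only, and with 1 knockout library no difference has a replicate check or a p-value.

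The promoter windows of the members are shown first because several hold the same short motif. Windows of 250 bases before each RefSeq start on GRCm38.p6 were searched for the E-box CACGTG on both strands. It was found in 6 of 12 member windows, which belong to 5 of the 9 members, against 6.02% of 32851 windows of all genes. The motif is a palindrome bound by basic helix-loop-helix proteins such as MYC and MAX. The windows of the 5 members that hold it are printed 5′ to 3′ on the strand of the gene, with the E-box in capitals.

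Sycp1, chr3:102936101-102936350 (minus strand): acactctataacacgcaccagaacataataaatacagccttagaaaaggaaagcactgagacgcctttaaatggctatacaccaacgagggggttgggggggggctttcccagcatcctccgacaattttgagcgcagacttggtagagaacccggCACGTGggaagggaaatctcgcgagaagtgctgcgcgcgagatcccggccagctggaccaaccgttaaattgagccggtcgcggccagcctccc
Sycp3, chr10:88459337-88459586 (plus strand): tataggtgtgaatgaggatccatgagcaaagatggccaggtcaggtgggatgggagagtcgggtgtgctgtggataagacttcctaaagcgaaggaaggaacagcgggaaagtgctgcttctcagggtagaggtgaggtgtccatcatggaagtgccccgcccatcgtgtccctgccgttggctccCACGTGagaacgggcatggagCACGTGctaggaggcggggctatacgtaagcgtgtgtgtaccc
Tex12, chr9:50561269-50561518 (minus strand): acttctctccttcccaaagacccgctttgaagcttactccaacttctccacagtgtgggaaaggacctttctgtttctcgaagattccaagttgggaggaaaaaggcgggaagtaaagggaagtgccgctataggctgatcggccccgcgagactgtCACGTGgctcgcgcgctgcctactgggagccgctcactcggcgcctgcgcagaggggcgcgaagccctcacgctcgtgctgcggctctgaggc
Hormad1, chr3:95559427-95559676 (plus strand): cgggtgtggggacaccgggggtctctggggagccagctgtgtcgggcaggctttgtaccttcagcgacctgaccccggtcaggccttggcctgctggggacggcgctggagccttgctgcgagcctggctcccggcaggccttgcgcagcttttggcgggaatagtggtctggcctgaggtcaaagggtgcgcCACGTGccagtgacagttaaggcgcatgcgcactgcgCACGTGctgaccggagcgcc
Syce2, chr8:84872008-84872257 (plus strand): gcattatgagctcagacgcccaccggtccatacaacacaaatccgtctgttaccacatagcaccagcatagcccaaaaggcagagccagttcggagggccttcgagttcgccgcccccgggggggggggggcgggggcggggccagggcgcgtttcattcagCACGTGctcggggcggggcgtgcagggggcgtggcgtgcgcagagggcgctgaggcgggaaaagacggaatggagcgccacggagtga

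The E-box began 94 bases before the start in Sycp1, 93 in Tex12 and 88 in the Syce2 window. Sycp3 held it 64 and 43 bases and Hormad1 57 and 20 bases before the start. A second Syce2 start upstream had no match, and a second Hormad1 start lies 2 bases further along the same window. The E2F motif GCGGGAA was in 5 of the 12 windows, those of Sycp3, Syce2, Tex12 and both of Hormad1, against 3.82% of all windows. The cyclic AMP response element TGACGTCA was in 0 member windows against 1.55% of all. The part TGACG alone, which overlaps it, was in 3 windows (Syce1, Syce2 and Syce3) against 17.8%. CCAAT was in 1 window, of Syce3, against 33.8%, and the MYB motif AACNGNC in 8 windows of 6 members against 27.7%. These are matches of letters and not sites of binding.

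The members lie on 8 chromosomes of GRCm38 and each is annotated as protein coding by GENCODE M21. Sycp1 is at chr3:102818499-102936100 (minus strand), Hormad1 at chr3:95559677-95587671 (plus), Sycp2 at chr2:178345293-178407685 (minus), Sycp3 at chr10:88459569-88473236 (plus) and Syce1 at chr7:140777229-140787852 (minus). Syce2 is at chr8:84872111-84888221 (plus), Syce3 at chr15:89390174-89410503 (minus), Tex12 at chr9:50556819-50561325 (minus) and Hormad2 at chr11:4345814-4441105 (minus). Sycp3 shares 660 exonic bases with the antisense gene Chpt1, and whether counting used the strand is not stated, so Sycp3 values are uncertain to that extent. Chpt1 was 41.2 to 311 CPM in the stages. Of the last 500 bases of Hormad1, 31.1% of the 31-base words also occur in the unlisted genes Gm15529 and Gm7167, and for Sycp1 11.2% occur in Sycp1-ps1, so reads from these copies could add to or be lost from their counts.

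In wildtype testes the summed share of UMIs held by the members rose at entry into meiosis and fell after early pachytene. The summed level of the 9 members was 1737 CPM in spermatogonia of wildtype replicate 1 (95% interval 1687 to 1788) and 1809 CPM of wildtype replicate 2 (1761 to 1857). It was 8025 and 7060 CPM in preleptotene cells and 11132 and 10780 CPM in the leptotene to early pachytene stage. These intervals did not overlap between stages. The sum fell to 3208 and 3380 CPM in pachytene cells and to 859 and 886 CPM in elongating spermatids. The knockout library followed the same course, at 1680, 8070, 11737, 3183 and 1047 CPM in those stages. Counted per cell, member UMIs averaged 114.8, 84.2 and 155.9 in the leptotene to early pachytene stage. They averaged 190.6, 140.5 and 233.6 in pachytene cells, so the count per cell rose while the share fell. Median depth per cell was 7519, 5874.5 and 9917 UMIs in the former stage and 56360, 35325 and 71473 in the latter. Falls in CPM into pachytene, here and below, are therefore falls in share.

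The axis genes Sycp2 and Sycp3 rose from lower levels in spermatogonia to their highest stage in leptotene to early pachytene cells. Sycp3 was 338 and 332 CPM in wildtype spermatogonia, 2117 and 1751 CPM in preleptotene cells, and 3886 and 3579 CPM in the leptotene to early pachytene stage. By pachytene it had fallen to 739 and 734 CPM and by the round spermatid stage to 14.3 and 20.8 CPM. Sycp2 went from 67.5 and 88.2 CPM in spermatogonia to 892 and 707 CPM in preleptotene cells and 1101 and 1130 CPM in the next stage. Sycp2 declined more slowly than Sycp3, with 476 and 506 CPM left in pachytene cells.

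Sycp1, like other members, was already present before meiosis. Its level was 436 and 524 CPM in wildtype spermatogonia, against 15.9 and 17.2 CPM in peritubular myoid cells, which should lack it. At least 1 UMI of Sycp1 was seen in 93.6% and 92.9% of these spermatogonia. With each cell thinned to 2000 UMIs the shares were 55.0% and 57.8%. In the same stage Syce2 was 365 and 341 CPM and Sycp3 338 and 332 CPM. Sycp1 reached 2897 and 3039 CPM in the leptotene to early pachytene stage and fell to 535 and 645 CPM in pachytene. A low level of 67.1 and 79.8 CPM was left in round spermatids, above the 15.9 and 17.2 CPM of myoid cells.

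The HORMA genes had their highest values in the leptotene to early pachytene stage. Hormad1 was 1394 and 1248 CPM there, against 610 and 509 CPM in preleptotene and 333 and 332 CPM in pachytene cells. Hormad2 was 101 and 84.6 CPM there, against 56.0 and 65.2 CPM before and 16.8 and 19.2 CPM after. Across the 7 stages and 3 libraries, Hormad1 followed Sycp3 with r = 0.994 and Hormad2 with r = 0.982 over 21 points of log2(CPM + 1), which share libraries and depth and are given as a description.

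The central element genes had unlike courses. Syce2 and Tex12, whose proteins are partners, had their highest stage in preleptotene cells. Tex12 was 752 and 634 CPM there, 506 and 438 CPM in the leptotene to early pachytene stage and 179 and 188 CPM in pachytene, and it was at 1.01 and 1.17 CPM in elongating spermatids. Syce2 was 1060 and 1020 CPM in preleptotene cells, 381 and 353 CPM in the next stage and 65.7 and 75.2 CPM in pachytene cells. Syce2 fell earlier than Tex12: in step 5, the earliest of the single clusters of pachytene cells described below, the wildtype mean of Syce2 was 18.5% of its highest step and that of Tex12 84.6%. After meiosis Syce2 returned to 417 and 404 CPM in round and 514 and 528 CPM in elongating spermatids. The correlation of Syce2 with Tex12 over the 21 points was 0.147.

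Syce1 was high late. It was 490 and 445 CPM in wildtype preleptotene cells, dipped to 205 and 231 CPM in the leptotene to early pachytene stage, and rose to 658 and 648 CPM in pachytene and 664 and 627 CPM in diplotene to dividing cells. The pachytene and diplotene values are neighbours whose order differed between libraries. Syce1 was therefore low in the stage in which Sycp1, Sycp2, Sycp3, Syce3, Hormad1 and Hormad2 were at their highest.

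Syce3 had its first high phase with the axis genes and a second one after pachytene. It was 661 and 677 CPM in the leptotene to early pachytene stage, 207 and 233 CPM in pachytene, 323 and 377 CPM in diplotene to dividing cells and 404 and 435 CPM in round spermatids. Syce3 kept 21.71% and 20.97% of its highest stage value in elongating spermatids, Syce1 27.03% and 28.85%, and Syce2 48.50% and 51.73%. The other 6 members kept at most 0.829% there. The stage value of Syce3 came from part of the elongating clusters, since it was 337 and 347 CPM in the cluster led by Fam71b but 23.5 and 35.6 CPM in the one led by Ttc24 and 39.7 and 43.1 CPM in the one led by Spem2. Those low values did not exceed the 51.2 and 47.2 CPM of myoid cells, which should lack Syce3. Syce1 was 81.5 to 218 CPM over the 5 elongating clusters of the wildtype libraries, against 68.8 and 75.0 CPM in myoid cells.

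**Figure D1:**
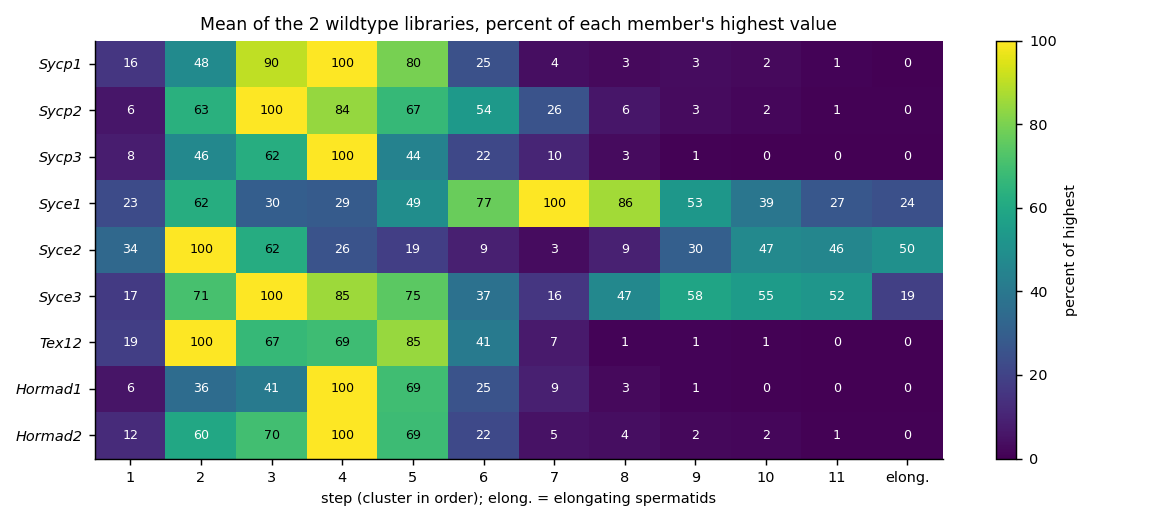
Mean CPM of the 2 wildtype libraries in each step (columns 1 to 11) and in elongating spermatids, as percent of each member's own highest column. Syce2 and Tex12 are highest in step 2, Sycp2 and Syce3 in step 3, Sycp1, Sycp3, Hormad1 and Hormad2 in step 4 and Syce1 in step 7, and the right side is filled for Syce1, Syce2 and Syce3.

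Single steps ordered the members more finely. Step 1 held spermatogonia and step 2 preleptotene cells led by Stra8, while steps 3 and 4 made up the leptotene to early pachytene stage, steps 5 to 7 pachytene, step 8 the diplotene to dividing stage and steps 9 to 11 round spermatids. Each member had its highest step in common in the 3 libraries. It was step 2 for Syce2 and Tex12, step 3 for Sycp2 and Syce3, step 4 for Sycp1, Sycp3, Hormad1 and Hormad2, and step 7 for Syce1. Hormad1 rose from step 3 to step 4, from 702 to 1619 CPM in wildtype replicate 1, from 586 to 1528 CPM in wildtype replicate 2 and from 650 to 1496 CPM in the knockout library. Tex12 was highest in step 2, lower in step 3 at 523, 403 and 369 CPM, and higher again in step 5 at 604, 569 and 460 CPM, so that its profile has a dip between preleptotene and pachytene in each library.

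The cells of the 11 steps were also placed along 1 order and cut into 20 bins. A member's onset is the first bin of the unbroken run around its peak with at least 25% of the peak value, and its fall is the next bin under that level. Sycp1 had its onset in bin 4, its peak in bin 6 and its fall in bin 10 in each library, at 3001, 3135 and 3809 CPM. Sycp2 had its onset in bin 4, its peak in bin 5 and its fall in bin 12, at 1322, 1319 and 1454 CPM. Both therefore started in the bin that holds mostly preleptotene cells, and Sycp2 peaked earlier and lasted longer.

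Sycp3 had its onset in bin 4 and its fall in bin 10, with a peak of 4442, 4073 and 4594 CPM in bin 6, 7 and 6. Hormad1 had the same onset and fall and peaked in bin 7 at 1654, 1515 and 1462 CPM. Hormad2 also peaked in bin 7 and had its fall in bin 10, with its onset in bin 4, 3 and 4. The HORMA genes thus peaked 1 bin after Sycp1 in each library, and Sycp3 in 1 of the 3 libraries.

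Tex12 had its onset in bin 3, its peak in bin 5, 4 and 4 and its fall in bin 11. Syce2 was above 25% of its peak from bin 1 and had its fall in bin 7, 6 and 8. In both wildtype libraries Syce2 came back above that level from bin 18 to the last bin, and in the knockout library from bin 19. Syce3 peaked in bin 5 and had its fall in bin 11, was lowest in bin 12 at 95.80, 98.96 and 105.7 CPM, and ran again from bin 14 to bin 20. Syce1 peaked in bin 13 at 808, 798 and 819 CPM and was still above 25% of that in the last bin, at 213, 212 and 240 CPM.

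The peak bin in the knockout library lay within 1 bin of both wildtype peaks for 9 of 9 members. Onset and fall of the main run differed by at most 1 bin between libraries, except the fall of Syce2, which spanned bins 6 to 8. The return of Syce2 was 1 bin later in the knockout library than in both wildtype libraries. The order of cells was made in 2 stretches joined in pachytene, as described with the processing.

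**Figure D2:**
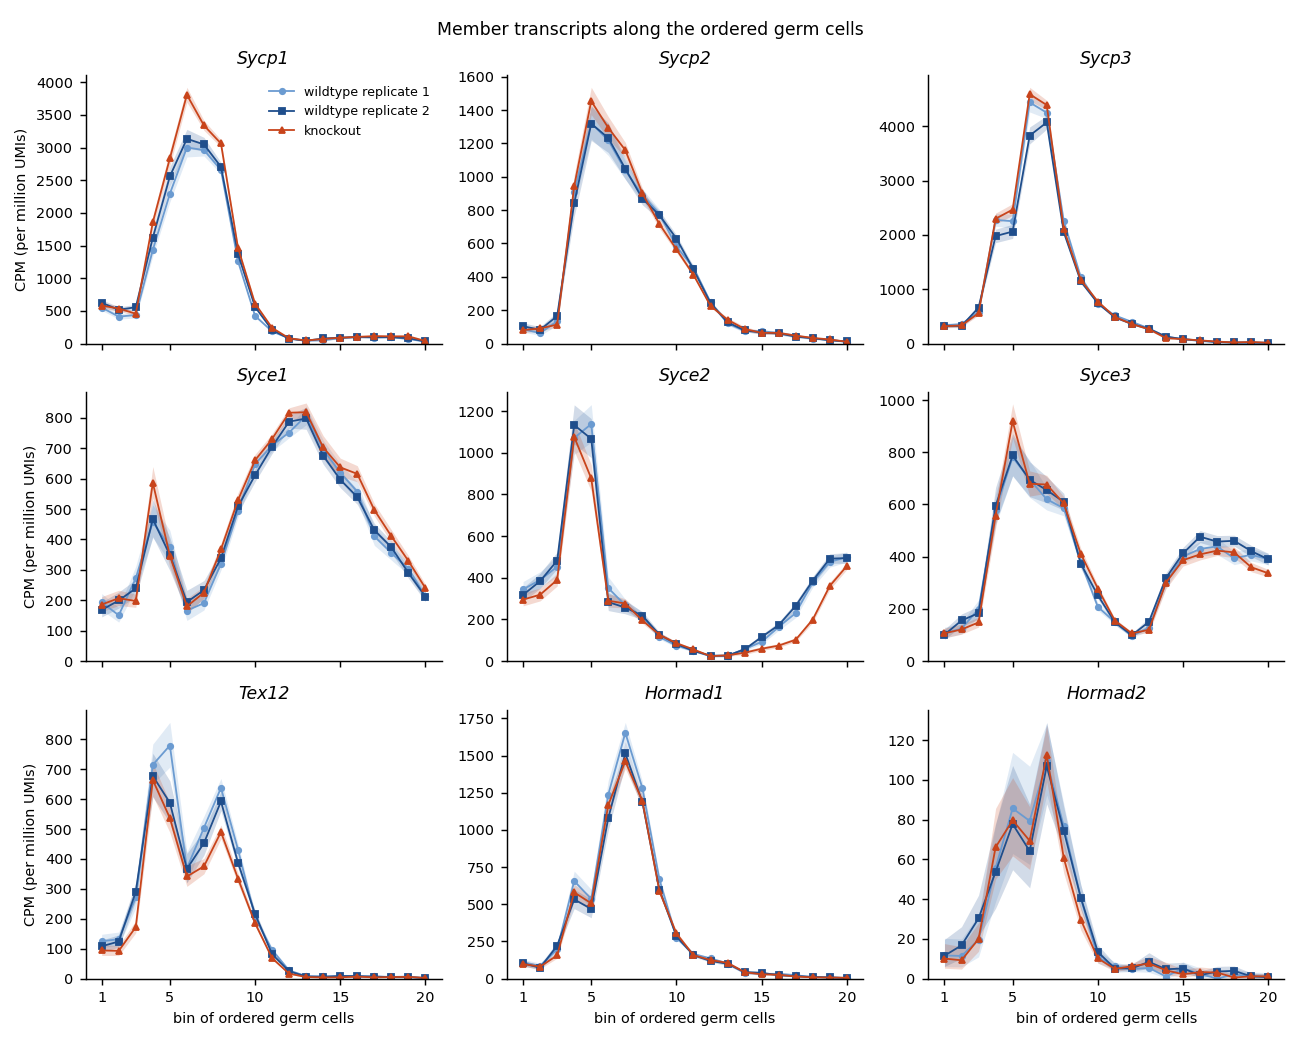
Level of each member in CPM (vertical axis) in 20 bins of ordered germ cells from spermatogonia to round spermatids (horizontal axis), for the 3 libraries, with 95% Poisson intervals as shading. The curves of the libraries overlie each other for most members, while the knockout curve of Sycp1 peaks at 3809 CPM above 3001 and 3135 CPM, that of Tex12 is lower in bin 8 and that of Syce2 stays low in bins 14 to 18.

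Members were also counted in single cells, each thinned to 2000 UMIs so that depth did not decide detection. In the leptotene to early pachytene stage a cell held UMIs of 6.16, 5.97 and 5.95 members on average in the 3 libraries. The same mean was 0.436, 0.454 and 0.386 in myoid cells, a somatic type that should lack these transcripts. Sycp1 was seen in 98.8%, 99.6% and 99.7% of cells of that stage and Sycp3 in 98.3%, 98.2% and 99.7%. Hormad2 was seen in only 13.3%, 17.5% and 17.1%. Before thinning the mean was 8.09, 7.75 and 8.33 members at median depths of 7519, 5874.5 and 9917 UMIs per cell. Thinning left out 1 to 5 cells per library in this stage.

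In pachytene cells thinned to 2000 UMIs, Tex12 was seen in 34.8% and 38.2% of wildtype cells and in 22.9% of knockout cells. Its share in myoid cells was 0 in each library. Syce2 in round spermatids was seen in 59.9% and 51.1% of wildtype and 36.4% of knockout cells, against 13.8%, 7.96% and 9.09% in myoid cells. Both shares were lower in the knockout library than in either wildtype library.

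**Figure D3:**
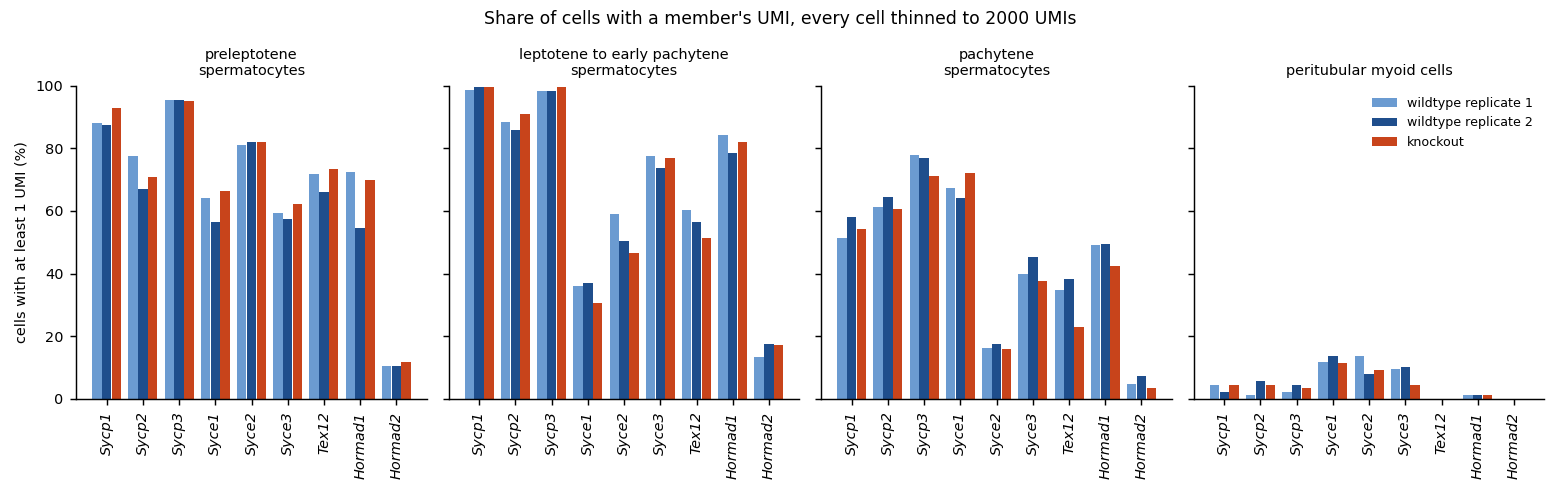
Share of cells with at least 1 UMI of each member (vertical axis, percent) after thinning every cell to 2000 UMIs, in 3 spermatocyte stages and in peritubular myoid cells, with 1 bar per library. In pachytene the knockout bar of Tex12 stands at 22.9% beside 34.8% and 38.2%, and in myoid cells Tex12 and Hormad2 are at 0.

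Genes with the most similar course were found by the correlation of log2(CPM + 1) over the 21 points of stage and library, among 10880 genes that reached 20 CPM. The 3 nearest were Ddx17, Ints6 and Zgrf1 for Sycp1 (r = 0.992 to 0.988), Ccdc117, Gm14167 and Zhx1 for Sycp2 (at least 0.987), and Zswim8, Bod1l and Gtf3c3 for Sycp3 (0.994 to 0.992). Mdc1, Cbfa2t2 and Pcbp2 were nearest to Hormad1 (0.991 to 0.989), Rnf103, Gapvd1 and Iqcb1 to Hormad2 (0.991 to 0.986), and Usp40, Tex101 and Meioc to Tex12 (0.995 to 0.991). The genes with a second or late phase had more distant neighbours: Susd6, Arhgap12 and March8 for Syce2 (0.978 to 0.951), Rpp21, Larp1b and Kank3 for Syce1 (0.931 to 0.925), and Poln, Trim52 and Usp16 for Syce3 (0.916 to 0.905).

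The comparison of the knockout library with the wildtype libraries used 2 rules. By the size rule a gene had to differ by at least 1 on the log2 scale, with 1 CPM added, from each wildtype library in the same direction, and by at least 2 times the difference between them. By the interval rule its interval had to lie on the same side of both wildtype intervals. Either rule needed 20 CPM in 1 library. None of the members passed the size rule in any of the 7 stages, in either direction. Of all genes tested, 0.270% passed it as higher and 0.0811% as lower in spermatogonia, 0.261% and 0.220% in preleptotene cells, and 0.0725% and 0.188% in the leptotene to early pachytene stage. These shares were 0.309% and 0.360% in pachytene, 0.441% and 0.583% in diplotene to dividing cells, 0.480% and 0.609% in round and 0.750% and 0.625% in elongating spermatids.

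Of 63 pairs of member and stage, 50 reached 20 CPM and were tested by the interval rule, of which 8 were higher in the knockout library and 9 were lower. With counts scaled by the median of ratios in place of totals the same numbers were 5 and 9. The rule depends on depth, so its share among all genes is given beside each count. It also depends on a gene's own UMI count, for which these shares are not matched. In spermatogonia 0 members were higher and 1 lower of 8 tested, against 2.52% and 2.08% of all genes. In preleptotene cells 1 was higher and 0 lower of 9, against 1.33% and 1.47%. The leptotene to early pachytene stage had 3 higher and 1 lower of 9, against 2.55% and 2.64%. The 3 higher were the well-counted Sycp1, Sycp2 and Sycp3. Their log2 ratios to the wildtype mean were 0.212, 0.125 and 0.123, at percentiles 83.3, 70.0 and 69.8 of tested genes. Pachytene had 1 higher and 4 lower of 8, against 15.8% and 14.1%. In diplotene to dividing cells 0 were higher and 1 lower of 7, against 8.79% and 8.05%. Round spermatids had 1 higher and 2 lower of 6, against 10.1% and 11.8%, and elongating spermatids 2 higher and 0 lower of 3, against 24.8% and 11.7%. From diplotene on, these are counts of at most 2 members of 3 to 7 tested.

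Syce2 after meiosis was the member that differed most. In step 9, the earliest cluster of round spermatids, it was 306 CPM (95% interval 288 to 324) in wildtype replicate 1, 322 CPM (310 to 336) in wildtype replicate 2 and 140 CPM (133 to 149) in the knockout. This amounts to 44.7% of the mean of the wildtype pair (314 CPM, SD 11.96, n = 2), with log2 ratios of -1.12 and -1.19 against wildtype replicates 1 and 2. This was the only pair of member and step to pass the size rule, which 0.747% of 5487 genes passed as lower and 0.529% as higher in that step. By the interval rule 8.95% of genes were lower there. Over all pairs of gene and step the shares were 0.366% and 0.326%. Among the tested genes of step 9 the ratio of Syce2 lay at percentile 0.601.

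The second rise of Syce2 started from like levels. In step 7, late pachytene, it was 32.2, 34.7 and 33.4 CPM in the 3 libraries. Step 8 gave 82.8 and 106 CPM in the wildtype libraries and 56.0 CPM in the knockout library, and step 10 gave 481 and 500 CPM against 365 CPM. In both steps the knockout interval lay below both wildtype intervals, as it did for 8.05% and 6.05% of all genes. In step 11, the latest round spermatids, the values were 482, 472 and 458 CPM with overlapping intervals.

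In elongating spermatids the direction was the opposite. Syce2 was 514 and 528 CPM in the wildtype libraries and 664 CPM in the knockout library, a log2 ratio of 0.35 to their mean, or 0.26 with scaling by the median of ratios. Median depth per cell was 10561, 8312 and 16253 UMIs in this stage, and its part in the difference was not tested. The knockout value was above both wildtype values in each of the 5 elongating clusters, and past both intervals in 4. By the interval rule 24.8% of all genes were higher in the whole stage, and 7.37% and 11.6% in the clusters led by Prss52 and Ttc24. The clusters are parts of the same 3 libraries and do not repeat each other. In the cluster led by Spem2, Tssk6 and Tppp2, Syce2 reached 1126, 1108 and 1554 CPM, where 4.44% of 2931 genes were higher by the interval rule. That share of UMIs was above the 1060, 1020 and 987 CPM of preleptotene cells. The cluster led by Spem2 had the lowest median depth per cell of the 5 elongating clusters. Its higher CPM is therefore a higher share, and whether the count of Syce2 UMIs per cell was also higher was not tested. Tnp1 and Tnp2 code for transition proteins that replace histones, and in the cluster led by them and Tex37 Syce2 was 389, 387 and 525 CPM, where 15.8% of genes were higher.

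The bins gave the same course without the step boundaries. In bin 16 Syce2 was 164, 172 and 74.1 CPM in the 3 libraries. Bin 17 gave 230, 265 and 102 CPM, bin 18 gave 378, 386 and 199 CPM and bin 20 gave 499, 494 and 456 CPM. Within step 9 the median position of the cells along the order was 85.3%, 84.9% and 83.5%, so the knockout cells of that step stood slightly earlier, and the part of that in the difference was not tested. In bin 17 the knockout value was below both wildtype intervals.

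Gcdh overlaps Syce2 on the other strand, shares 0 exonic bases with it and was at most 0.216 CPM in diplotene to dividing cells and 0.102 CPM in round spermatids. Among the other central element genes in step 9, Syce1 was 389, 403 and 470 CPM, above both wildtype intervals, as were 7.75% of all genes. Syce3 was 414, 459 and 420 CPM there, between the wildtype values. Tex12 was at 6.35, 5.70 and 4.81 CPM, under the level needed for either rule.

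**Figure D4:**
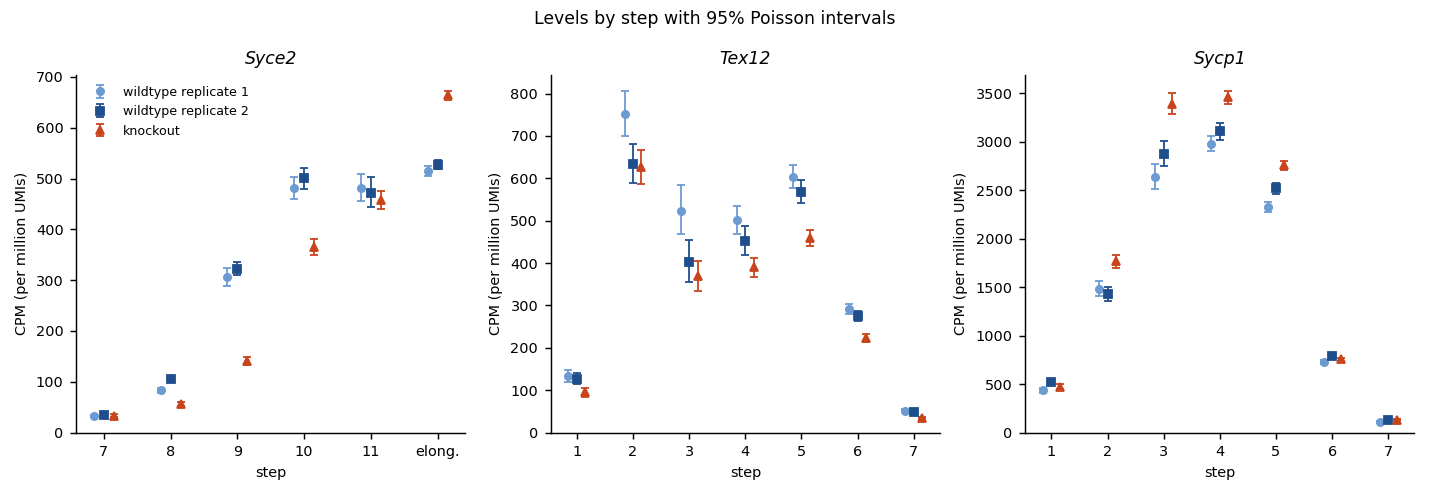
CPM of Syce2 in steps 7 to 11 and elongating spermatids, and of Tex12 and Sycp1 in steps 1 to 7, with 95% Poisson intervals, 1 point per library. Syce2 in the knockout library stands at 140 CPM in step 9 beside 306 and 322 CPM, and above both wildtype libraries in elongating spermatids.

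Tex12 was lower in the knockout library through much of its course, by less than the size rule asks. In spermatogonia it was 133 and 126 CPM in the wildtype libraries and 94.6 CPM in the knockout library. Step 4 gave 501, 453 and 390 CPM, step 5 gave 604, 569 and 460 CPM, step 6 gave 291, 276 and 223 CPM and step 7 gave 51.4, 48.6 and 35.3 CPM. In each of these 5 steps the knockout interval lay below both wildtype intervals, which 2.08%, 2.30%, 3.45%, 6.57% and 10.3% of all genes did. The knockout value was 72.9%, 81.7%, 78.4%, 78.6% and 70.6% of the wildtype mean.

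In steps 2 and 3 Tex12 was 752, 634 and 626 CPM and 523, 403 and 369 CPM in the 3 libraries. The lowest value was that of the knockout in both, and its interval overlapped the one of wildtype replicate 2. Over the whole pachytene stage Tex12 was 179, 188 and 133 CPM. Its partner gene Syce2 was 65.7, 75.2 and 67.4 CPM in the same cells, between the wildtype values. Tex12 lies antisense to Il18, with no shared exonic bases in the annotation, and Il18 was 1.25 to 1.87 CPM in pachytene.

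Sycp1 was higher in the knockout library in the early steps. Preleptotene cells gave 1484 and 1430 CPM in the wildtype libraries and 1765 CPM in the knockout library. Step 3 gave 2636, 2874 and 3392 CPM, step 4 gave 2982, 3109 and 3457 CPM and step 5 gave 2329, 2521 and 2756 CPM. In these 4 steps the knockout interval was above both wildtype intervals, as it was for 1.33%, 0.780%, 2.08% and 3.54% of all genes. Of the members, 0 were lower in step 3, where 0.884% of all genes were. The log2 ratios to the wildtype mean were 0.28, 0.30, 0.18 and 0.18. Among the tested genes of each step these ratios lay at percentiles 82.5, 83.6, 76.5 and 84.6. Sycp1 has many UMIs, so its narrow intervals separate at small ratios. In step 6 the value of 755 CPM lay between 730 and 787 CPM.

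After meiosis, where Sycp1 is low, it was 93.9, 97.4 and 113 CPM in step 9 and 69.6, 78.8 and 102 CPM in step 10, with knockout intervals above both wildtype intervals. The shares of all genes higher by this rule were 7.75% and 5.88%. Sycp3 in step 10 was 12.1, 19.6 and 26.7 CPM, with a ratio of 1.08 on the log2 scale against wildtype replicate 1 and 0.42 against wildtype replicate 2. Only the knockout library reached 20 CPM there, and its interval did not clear both wildtype intervals. The log2 ratio of wildtype replicate 2 to wildtype replicate 1 was 0.65.

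Differences in the axis genes were small. Sycp2 in step 4 was 1058 and 1063 CPM in the wildtype libraries and 1186 CPM in the knockout library, above both wildtype intervals. In step 6 it was 665, 688 and 611 CPM and in step 7 it was 325, 323 and 295 CPM, below both wildtype intervals. By this rule 2.08% of all genes were higher in step 4, and 6.57% and 10.3% were lower in steps 6 and 7. The Sycp2 ratios lay at percentiles 73.5, 20.6 and 15.6 of the genes tested in steps 4, 6 and 7. Sycp3 in step 3 was 2782, 2410 and 3087 CPM and in step 4 it was 4246, 4074 and 4436 CPM. The knockout interval of Sycp3 was above both wildtype intervals in these 2 steps with scaling by totals and overlapped 1 of them with scaling by the median of ratios. With scaling by totals 0.780% and 2.08% of all genes were higher in these steps.

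Hormad2 in step 6 was 23.1 and 21.8 CPM in the wildtype libraries and 13.9 CPM in the knockout library, 61.8% of the wildtype mean and below both wildtype intervals. It reached the 20 CPM that the rule needs only in the wildtype libraries. By the interval rule 6.57% of all genes were lower there. In the same step Hormad1 was 415, 384 and 353 CPM, and its interval no longer cleared that of the wildtype libraries with scaling by the median of ratios. In step 4, where both genes are highest, Hormad1 was 1619, 1528 and 1496 CPM and Hormad2 107, 95.6 and 103 CPM, with overlapping intervals. Hormad2 in step 5 was 66.7, 72.3 and 54.2 CPM, and the knockout interval did not clear both wildtype intervals. In step 7 Hormad2 was 4.582, 5.345 and 5.476 CPM, under the level needed for either rule.

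Syce1 was slightly higher in several late steps. In step 6 it was 582, 576 and 629 CPM, in step 7 745, 754 and 788 CPM and in step 11 204, 202 and 235 CPM. Of all genes, 6.72%, 13.5% and 4.99% were higher in these steps. The value in step 11 no longer cleared both wildtype intervals with scaling by the median of ratios. Syce3 was lower in step 10 at 408, 414 and 350 CPM and in step 11 at 384, 400 and 344 CPM, where 6.05% and 4.60% of all genes were lower.

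**Figure D5:**
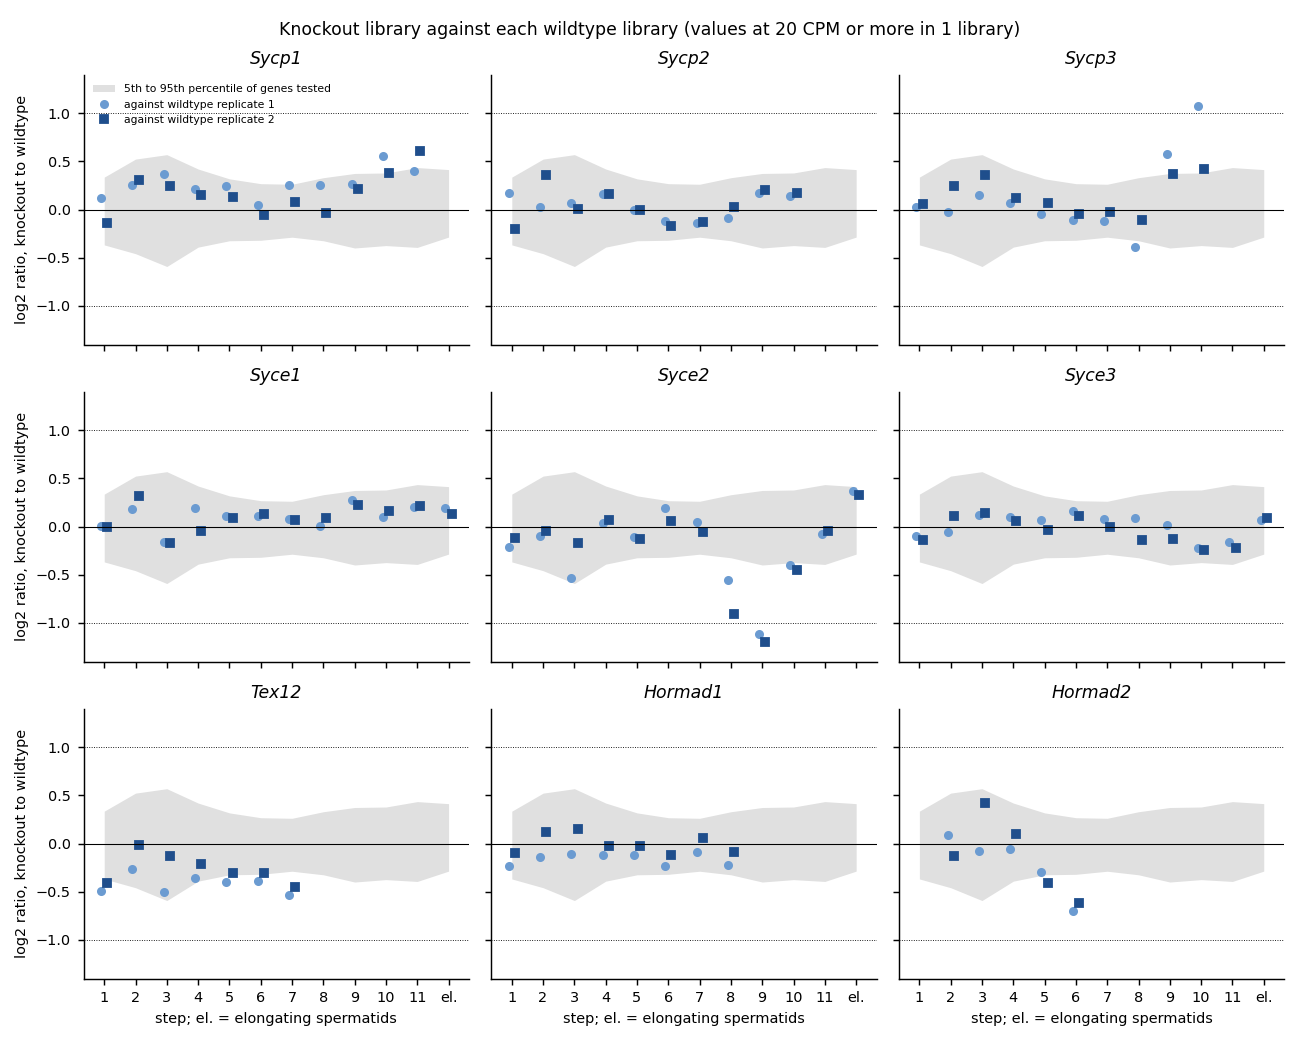
Log2 ratio of the knockout library to each wildtype library (vertical axis) for each member in steps 1 to 11 and elongating spermatids (horizontal axis), shown where at least 1 library reached 20 CPM, with the 5th to 95th percentile of all tested genes in grey and dotted lines at 1 and -1. Syce2 in step 9 is the only place where both ratios pass a dotted line, at -1.12 and -1.19, and the Tex12 ratios are below 0 in steps 1 to 7.

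The members differed in both directions, so their median describes no single one of them. The median log2 ratio of those tested to the wildtype mean was 0.05 in the leptotene to early pachytene stage, where the median of all genes tested was 0.02. It was -0.07 in pachytene beside 0.00 for all genes and 0.14 in round spermatids beside 0.01.

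Other genes of the pathway were taken from 4 lists. Among 13 partners in synapsis and axis formation, 0 passed the size rule in any stage, and the interval rule called 1 higher of 13 tested in preleptotene cells (1.33% of all genes) and 1 lower of 8 in the leptotene to early pachytene stage (2.64%). The former was Smc1b, a meiotic cohesin, at 2136, 2032 and 2350 CPM in the 3 libraries. Smc3, its cohesin partner, was 1053, 990 and 1099 CPM in the same cells, and 4930447C04Rik, which is also called Six6os1 and encodes a central element protein, was 703, 674 and 784 CPM. The latter was Skp1a at 395, 404 and 346 CPM, and in pachytene Stag3, a cohesin subunit, was the 1 lower of 5 at 173, 166 and 153 CPM, where 14.1% of all genes were lower. Fbxo47 was lower in round spermatids at 61.5, 59.7 and 46.4 CPM, while Smc3 was higher there at 98.8, 113 and 124 CPM and in diplotene to dividing cells at 134, 150 and 181 CPM. In round spermatids 11.8% of all genes were lower and 10.1% higher, and in diplotene to dividing cells 8.79% were higher. Skp1a, Stag3 and Fbxo47, like Cdk2, Prr19 and Rnf212 below, are named because the rule called them, after their values were seen.

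Of 7 genes of telomere attachment, 0 were higher and 1 lower of 7 in pachytene by the interval rule, against 15.8% and 14.1% of all genes, and 0 either way in the leptotene to early pachytene stage. The lower gene was Cdk2 at 36.3, 35.5 and 29.1 CPM. Those with the highest wildtype levels were Spdya, at 352, 362 and 375 CPM in pachytene, and Terb1 and Sun1, which link telomeres to the nuclear envelope, at 212, 155 and 208 CPM and 135, 105 and 121 CPM in preleptotene cells.

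Of 7 genes that signal from unsynapsed axes, 1 was higher and 0 lower of 7 in the leptotene to early pachytene stage, against 2.55% and 2.64% of all genes. The higher gene was Atr, the kinase recruited to such axes, at 458, 465 and 610 CPM. H2afx, the histone that ATR phosphorylates, was 458, 441 and 402 CPM in the leptotene to early pachytene stage.

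Of 11 crossover factors on synapsed axes, 0 were called either way in the leptotene to early pachytene stage of 9 tested, and 1 was higher and 2 lower of 6 in pachytene, against 15.8% and 14.1% of all genes. The lower genes were Hfm1, a meiotic helicase, at 45.8, 48.5 and 40.6 CPM and Rnf212 at 23.6, 26.9 and 17.9 CPM, and the higher one was Prr19 at 75.9, 76.0 and 92.7 CPM. Rnf212 reached the 20 CPM that the rule needs only in the wildtype libraries. Cntd1 was 246, 241 and 215 CPM in the leptotene to early pachytene stage and Tex11 was 173, 190 and 157 CPM in spermatogonia. No gene of the 4 lists passed the size rule in any stage.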

How the data were processed

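Single-cell 3′ libraries of adult testis digested with collagenase IV were analysed: 2 wildtype libraries of 1 mouse each and 1 knockout library of 2 pooled mice. Deposited for each barcode were the UMI counts of each gene, which per the file headers come from Cell Ranger 4.0.0. The submitters' processing notes name mm10 and Seurat 4.0.5. Annotation and use of strand are not given in the sources used here.

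A barcode needed 1000 UMIs, 500 genes and no more than 10% mitochondrial UMIs, which left 8134, 8337 and 12014 barcodes in wildtype replicates 1 and 2 and the knockout library. Scrublet's automatic threshold marked 0, 1 and 0 barcodes, under 0.5% of each library, so the top 8% of its scores were left out instead. Counts were scaled per cell and logged (scanpy 1.11.5), and 2000 variable genes without the members, 30 components and 15 neighbours entered Leiden clustering (resolution 1, leidenalg 0.10.2). Clusters were named from marker genes, with at least 3 detected, and a name is marker-defined ("spermatogonia-like" and so on), so differences from the study may come from rebuilt names. Clusters with a median under 3 times the lowest deposited total were kept out as low-UMI. The named Leydig-like cluster held 0 cells of wildtype replicate 1, and a low-UMI cluster with Leydig markers held 8 of its barcodes.

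UMIs were summed per stage and library as counts per 1000000 UMIs (CPM). One diffusion order from spermatogonia to round spermatids folded back, placing steps 9 and 10 at median ranks of 28.5% and 30.8%, so the order was made in 2 stretches, spermatogonia to pachytene and pachytene to round spermatids. This change, the single steps and the single elongating clusters were chosen after seeing the data. Promoters were RefSeq windows on GRCm38.p6. The scripts were tested on simulated counts.

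The members and lists were chosen with earlier results of these data known. The genes named are the members, per list the 3 with the highest wildtype CPM in any germ cell stage and any past the size rule, per member the 3 most similar in course, and Tex10. Other list genes called by the interval rule are named as such. A list gene that falls under these rules, and its result, are not reported here. No test across groups was possible with 1 knockout library, and cells were not used as replicates.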

Additional observations from a re-analysis of the deposited data

Results flagged for a closer look

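Syce2 in the knockout library went opposite ways in different stages. Its log2 ratio to the wildtype mean was -0.742 in diplotene to dividing cells, below both wildtype libraries, and 0.349 in elongating spermatids, above both. Sycp2 was above both wildtype libraries in the leptotene to early pachytene stage (log2 ratio 0.125) and below both in pachytene (-0.164). Sycp3 did the same in the stage sums, with 0.123 and -0.087. In the single pachytene steps 5, 6 and 7 its ratios were 0.013, -0.076 and -0.072. The knockout interval of Sycp3 did not clear both wildtype intervals in any of these steps. These differences between stages were not tested, since there is 1 knockout library. Sycp2 and Sycp3 overlapped a wildtype interval in the earlier stage under scaling by the median of ratios.

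Member transcripts were also found in barcodes that entered no stage. In low-UMI barcodes the 9 members summed to 1399, 1528 and 1545 CPM in wildtype replicates 1 and 2 and the knockout library. In barcodes with over 10% mitochondrial UMIs they summed to 998.1, 1107 and 1000 CPM. Syce1 was the member with most UMIs in the low-UMI barcodes of each library, at 398, 459 and 509 CPM.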

How the results depend on the processing

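No paired analysis was possible because the knockout group has 1 library and the groups share fewer than 2 replicate numbers. None of the members passed the size rule in any stage under any of its 18 alternatives. The interval rule gave 5 higher pairs of member and stage in place of 8 with scaling by the median of ratios, when Sycp2 and Sycp3 in the leptotene to early pachytene stage and Syce1 in elongating spermatids overlapped a wildtype interval. Without 1 wildtype replicate, when only the other has to be cleared, it gave 12 to 13 higher and 14 lower pairs in place of 8 and 9. In the leptotene to early pachytene stage the knockout cells had 0.119 fewer members per cell than the wildtype mean with cells thinned to 2000 UMIs, and 0.413 more without thinning, where the knockout cells were deeper. Thinned to 1000 UMIs the 3 libraries had 4.78, 4.55 and 4.62 members per cell, and thinned to 5000 UMIs 7.49, 7.53 and 7.50. At these 2 depths the knockout value lay between the wildtype values. The count of knockout peaks near both wildtype peaks stayed at 9 with 10 bins, with 40 bins and with the members allowed in the ordering. With 40 bins a distance of 2 bins was allowed. The other alternatives, cuts at 10% and 50% of the peak, do not move the peak bin and so could not change this count. The log2 ratio of Syce2 in step 9 ranged from -1.21 to -1.12 over 7 alternatives, that of Tex12 in step 5 from -0.39 to -0.31 and that of Sycp1 in step 3 from 0.09 to 0.36. The mean of cells' CPM could not be used for the interval rule, which needs UMI sums. Depth limits Hormad2, which is under 20 CPM in each library from step 7 on.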
